A study of Glycine max with 4 samples.

Results

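Isolated peaks are stretches of accessible chromatin that lay more than 100 kb from the nearest peak on either side. They were chosen by the measured peak positions alone, the gap on each side being counted from the edge of a peak to the facing edge of its neighbour. Of 10719 peaks on the 20 chromosomes of the soybean (Glycine max), 941 met this rule, which is 8.78% (95% exact binomial interval 8.25 to 9.33). The other 9778 chromosomal peaks are those with a neighbour within 100 kb on at least 1 side, together with the first and last peak of each chromosome, which the rule leaves out. The whole list held 11436 peaks, of which 717 on unplaced scaffolds were not considered. The peaks came from ATAC-seq of embryos of the cultivar Williams 82 at the early-maturation stage, dissected from seeds of 6 to 7 mm, with 50000 nuclei per reaction. There were 2 biological replicates, each with a paired-end and a single-end sample, so that both groups had 2 samples, and the authors used the paired-end data only, per the series' design text. No mutant, treatment or second stage was part of the design, and the embryo was profiled whole, so the cell types behind a peak are not given.

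ATAC-seq reads out where the Tn5 transposase can reach the DNA, which is mostly where nucleosomes have been displaced, as at promoters and at enhancers bound by transcription factors. In plants, accessible sites far from genes can hold distal regulatory elements, some of which act over long distances. Soybean genes are most frequent toward the chromosome ends, while the middle of most chromosomes is a broad pericentromeric region rich in transposable elements and in compact, methylated heterochromatin. During early maturation the embryo turns from cell division and patterning to the build-up of storage protein and oil.

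The deposited list gives the position of each peak and no height, score, count or replicate. The read depth is therefore unknown, and a value per replicate could not be given. Since there was 1 list, no test was made: shares carry 95% exact binomial intervals, and differences between shares carry 95% Newcombe intervals. These cover counting error only and treat peaks as independent, although neighbouring peaks are not. The positions and distances of isolated peaks follow from the rule and are given as a description. Peak widths did not enter the rule. Coordinates count from 1, on a genome build not given in the sources used here, and no gene, sequence or annotation was assigned to any peak.

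Isolated peaks were few and small beside the peak-free stretches around them. A gap here is a stretch without a listed peak, and why it lacks one was not tested. Together they covered 490 kb, while the other chromosomal peaks covered 5.18 Mb. The gaps that bordered an isolated peak numbered 1498 and summed to 437 Mb, 46.1% of the 947 Mb spanned by the chromosomes as measured to their last peaks. Gaps of over 100 kb made up 24.9% of all 10699 gaps and 73.7% of that length. Of these 2662 long gaps, 384 ran between 2 isolated peaks, 1114 had an isolated peak at 1 end, and 1164 had none at either end.

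The distance to the nearest peak had a median of 154 kb among isolated peaks, with quartiles of 119 and 230 kb and a maximum of 1213 kb. Among the other peaks with a neighbour on either side, the median was 11.9 kb. Of the isolated peaks, 452 (48.0%) had a neighbour within 150 kb, 308 had none within 200 kb, 39 had none within 500 kb and 4 had none within 1 Mb. The gap on the farther side had a median of 303 kb, with quartiles of 199 and 490 kb, and exceeded 1 Mb for 47 isolated peaks. The farther gap was 1.66 times the nearer one in the median, with quartiles of 1.27 and 2.42, and was over 5 times as long for 35 peaks.

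**Figure D1:**
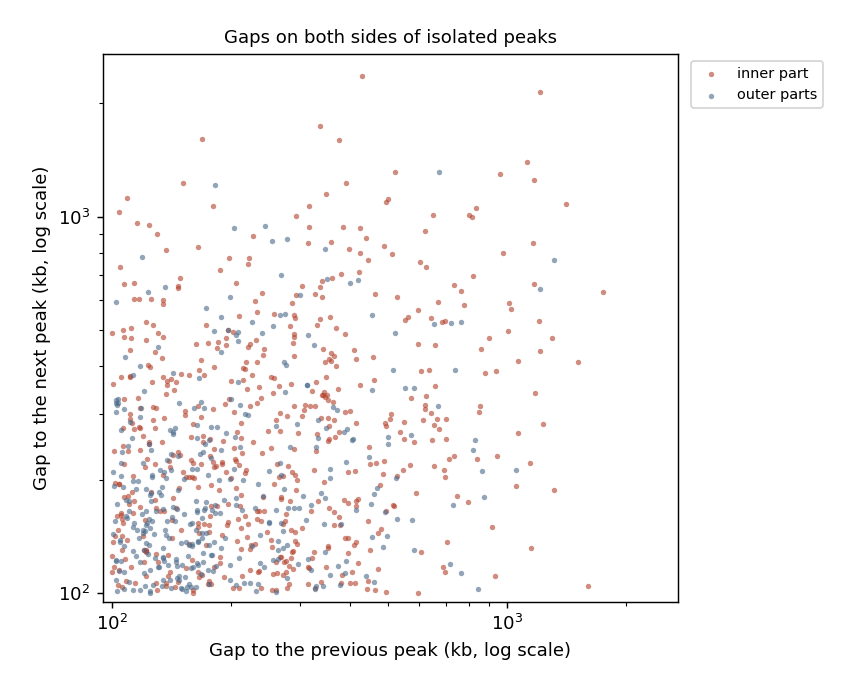
Gap to the previous peak (x axis) and to the next peak (y axis) for each of the 941 isolated peaks, in kb on log scales, coloured by location in the inner or outer parts of chromosomes. The points fill the area from 100 kb upward on both axes and are densest near the corner at 100 kb, and the highest point is the peak of chromosome 15 with a gap of 2365 kb after it.

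The most remote peak of the list lay on chromosome 2 at 21724300-21724672. It was 373 bp wide, with 1.21 Mb free of peaks before it and 2.14 Mb after it. The next was a peak of 576 bp on chromosome 20 at 18640565-18641140, with peak-free stretches of 1.17 and 1.25 Mb. A peak of 797 bp on chromosome 19 at 25619633-25620429 stood between gaps of 1.12 and 1.40 Mb. On chromosome 14, a peak of 419 bp at 26035551-26035969 had 1.41 Mb before it and 1.08 Mb after it. The fifth, of 536 bp on chromosome 12 at 28459823-28460358, had gaps of 0.961 and 1.30 Mb. These 5 lay between 39.0% and 71.0% of the way along their chromosomes, and their widths ran from 373 to 797 bp. The longest gap of all chromosomes, 2.37 Mb on chromosome 15, was bordered by an isolated peak at its start only. That peak, at 32927627-32927828, was 202 bp wide. Of the 52 gaps longer than 1 Mb, 40 had an isolated peak at an end, and 11 had them at both ends.

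At the limit of the rule, the members just inside it were a peak on chromosome 18 at 32973758-32974161, with a neighbour at 100063 bp, a peak on chromosome 9 at 22387161-22387453, with a neighbour at 100175 bp, and a peak on chromosome 8 at 21553075-21553542, with a neighbour at 100222 bp. Just outside it were a pair on chromosome 7, at 18295160-18295711 and 18395642-18396420, which faced each other across 99930 bp, and a peak on chromosome 14 at 46525954-46526062, with a neighbour at 99921 bp. These peaks were picked as the closest to the limit, so their likeness in that distance follows from the choice. By class, 1306 peaks had their nearest neighbour at 50 to 100 kb and 452 at 100 to 150 kb.

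A long gap was followed by another long gap more often than a shorter gap was. Among the 2660 peaks with more than 100 kb free before them, 35.4% also had more than 100 kb free after them, and these are the isolated peaks. Among the 8019 peaks with a shorter gap before them, 21.3% had a long gap after them. These gaps enter the rule, and peak density differed along the chromosomes, so both shares are a description only. Of the isolated peaks, 588 (62.5%) stood in 204 runs of neighbours that were all isolated, and the other 353 had no isolated neighbour. By the rule, any neighbour of an isolated peak already has more than 100 kb free on the facing side. Much of this share may therefore follow from the rule and the gap rates above. It was not compared with a share expected from them, so the runs are a description only. Most runs were short, with 120 of 2 peaks and 41 of 3, but 26 runs held 5 or more peaks each and 157 peaks in all. These 26 were found on 16 chromosomes, and 21 were centred in the inner part, which is the middle of a chromosome between 25% and 75% of its span.

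The longest run had 10 peaks on chromosome 1, from 14749651 to 17900472, so that 4358 bp of 3.15 Mb (0.138%) were covered by peaks. Runs of 9 peaks lay on chromosome 4 from 16706246 to 19474163, on chromosome 5 from 9718621 to 12069287 and on chromosome 12 from 13951584 to 15836173, with lengths of 2.77, 2.35 and 1.88 Mb. In these 4 runs the median width was 403.5 bp on chromosome 1, 436 bp on chromosome 4, 387 bp on chromosome 5 and 464 bp on chromosome 12. Their centres lay between 26.4% and 37.3% of the span, before the middle of the chromosome.

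Isolated peaks were found throughout the chromosomes and most often in the inner part. Of the 941, 577 lay there (61.3%, interval 58.1 to 64.4), against 2916 of the 9778 other peaks (29.8%, interval 28.9 to 30.7), a difference of 31.5 percentage points (interval 28.2 to 34.7). Where peaks are sparse the rule takes more of them, so this difference is bound to the density of all peaks and is not evidence of its own. Per length of chromosome, isolated peaks numbered 1.22 per Mb in the inner part, against 0.769 per Mb in the outer parts. Other peaks numbered 6.16 per Mb in the inner part, against 14.5 per Mb outside it. Put as shares, 16.5% of inner peaks and 5.04% of outer peaks were isolated.

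**Figure D2:**
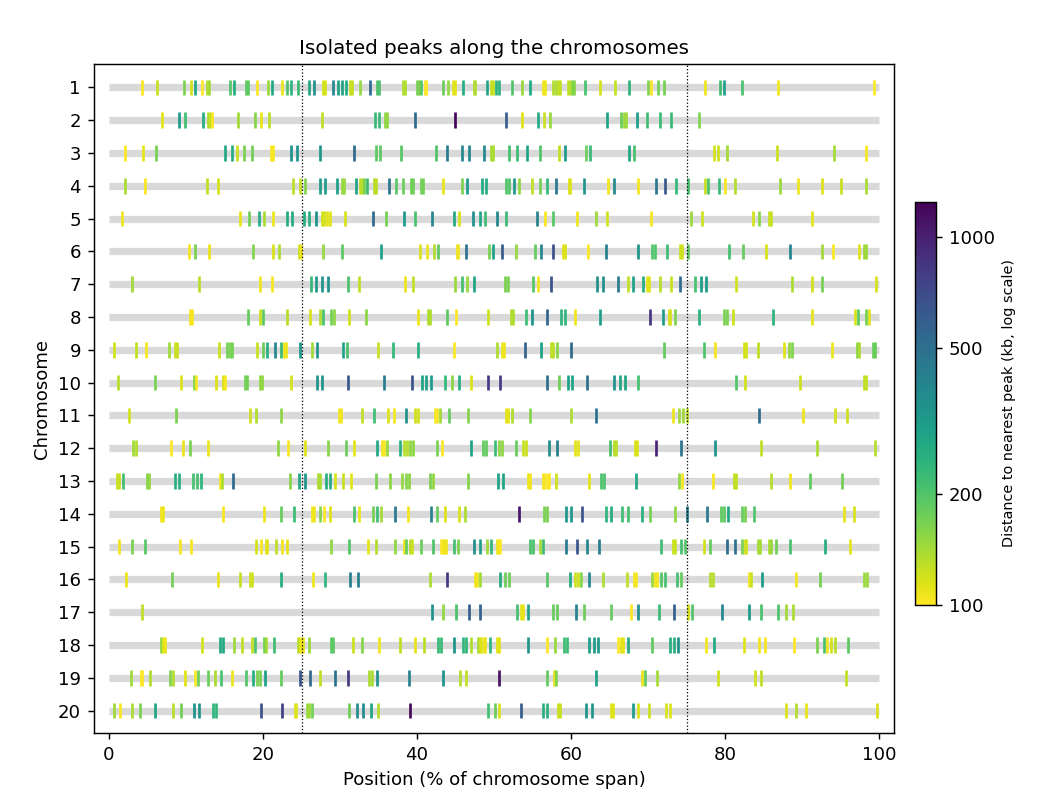
Each vertical mark is 1 of the 941 isolated peaks, placed by its position in percent of the span of its chromosome (x axis) on chromosomes 1 to 20 (y axis), and coloured by the distance to its nearest peak in kb on a log scale. Dotted lines bound the inner part; the 4 peaks more than 1 Mb from any other, on chromosomes 2, 14, 19 and 20, all lie between 39.0% and 53.3% of the span.

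In 20 equal bins along the span, the density of isolated peaks was 0.643 ± 0.547 per Mb in the first bin (SD, n = 20 chromosomes). It was 1.41 ± 0.559 in the twelfth bin, whose centre is at 57.5%, and 0.608 ± 0.470 in the last bin. The chromosomes spread widely around these means, and the bins overlap within that spread. Other peaks ran the opposite way, with 16.8 ± 5.18 per Mb in the first bin, 3.99 ± 2.46 in the twelfth and 18.6 ± 5.35 in the last. The isolated share of peaks was 3.61% in the first bin, 27.0% (interval 21.6 to 32.8) in the twelfth and 2.44% in the bin with its centre at 92.5%. Even at the tips some peaks stood alone: of 1725 peaks in the outermost 5% at either end, 59 were isolated (3.42%).

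**Figure D3:**
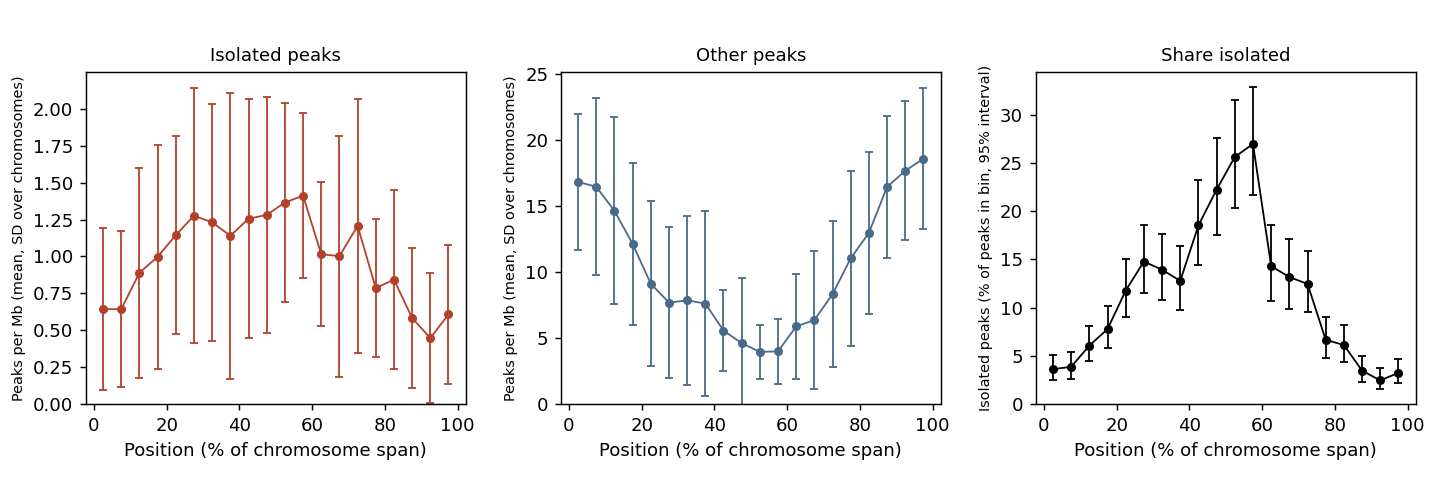
Density of isolated peaks (left) and of other peaks (centre) in peaks per Mb, as mean and SD over 20 chromosomes, and the share of all peaks that were isolated with its 95% exact binomial interval (right), in 20 bins of 5% of the chromosome span. The mean density of isolated peaks is higher in the middle bins than in the end bins and that of other peaks is lower there, and the share isolated is highest, at 27.0%, for the bin with its centre at 57.5%.

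The nearest distance enters the rule, and peaks were sparser in the inner part. The next shares are therefore bound to peak density and are not evidence of their own. The more remote an isolated peak, the more often it lay in the inner part. Peaks there made up 52.4% of the 452 isolated peaks whose nearest neighbour was within 150 kb, 59.1% of the 181 at 150 to 200 kb, 69.6% of the 168 at 200 to 300 kb and 82.9% of the 140 beyond 300 kb. Distance to the nearest peak and the number of peaks in the wider surroundings were not the same thing, however. Within 500 kb of an isolated peak there was a median of 6 other peaks, with quartiles of 3 and 10, against a median of 16 with quartiles of 11 and 21 around the other peaks. The rule keeps the first 100 kb on each side of an isolated peak free. The lower counts are therefore partly built in and are not evidence of their own. For 39 isolated peaks no other lay within 500 kb, while 266 had at least 10. The fullest surroundings were those of a peak on chromosome 18 at 39062797-39063186, which had gaps of 375 and 269 kb and yet 48 peaks within 500 kb, of which 46 lay beyond the gap after it.

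Chromosomes differed in how many of their peaks were isolated, with a mean of 8.84% ± 2.23 (SD, n = 20 chromosomes). The share was highest on chromosome 1 with 79 of 581 peaks (13.6%, interval 10.9 to 16.7), chromosome 15 with 64 of 519 (12.3%, interval 9.63 to 15.5) and chromosome 16 with 45 of 365 (12.3%, interval 9.14 to 16.1). It was lowest on chromosome 17 with 27 of 547 (4.94%, interval 3.28 to 7.10), chromosome 2 with 32 of 560 (5.71%, interval 3.94 to 7.97) and chromosome 10 with 41 of 612 (6.70%, interval 4.85 to 8.98). The intervals of the highest 3 do not overlap those of the lowest 3, while most chromosomes between them overlap both. The highest and lowest 3 were picked as the extremes of 20 by this same share, so their separation is partly built in. The intervals also treat peaks as independent, so the separation is a description only. Peak density differed alongside, with 10.2, 10.03 and 9.65 peaks per Mb on chromosomes 1, 15 and 16, and 13.2, 11.6 and 11.9 peaks per Mb on chromosomes 17, 2 and 10. Density did not order the shares fully: chromosome 20 was the sparsest at 9.57 peaks per Mb and had 9.85% isolated, and chromosome 11 the densest at 13.8 peaks per Mb with 6.90%.

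**Figure D4:**
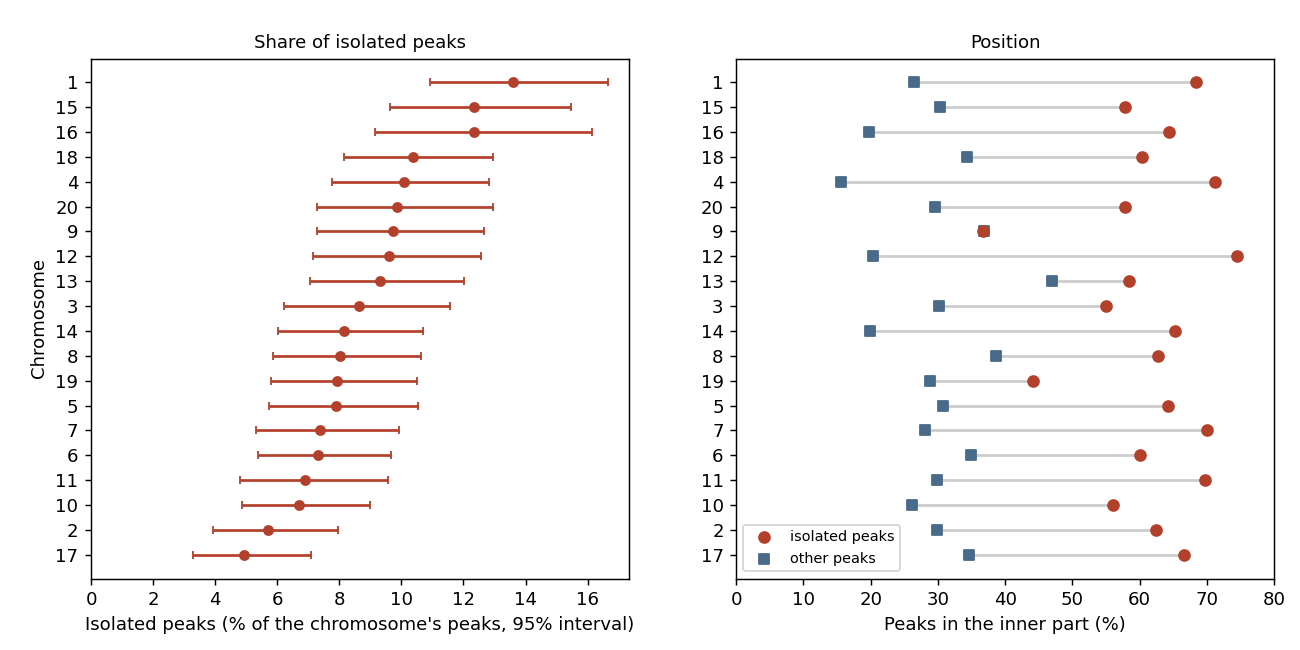
For each chromosome (y axis, ordered by the share isolated), the isolated share of its peaks in percent with the 95% exact binomial interval (left), and the percent of isolated and of other peaks that lay in the inner part (right). Shares run between 13.6% on chromosome 1 and 4.94% on chromosome 17, and the inner percent is higher for isolated than for other peaks on 19 of 20 chromosomes.

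Within chromosomes, the inner share averaged 61.3% ± 8.98 for isolated peaks and 29.6% ± 7.30 for other peaks (SD, n = 20 chromosomes). The contrast was widest on chromosome 4, with 71.2% of isolated and 15.6% of other peaks in the inner part, and on chromosome 12, with 74.5% and 20.4%. Chromosome 9 was the exception, with 36.7% of isolated and 36.8% of other peaks there. On chromosome 9, 18 of 49 isolated peaks lay in the first 25% of the span and 13 in the last 25%. Chromosome 19 also had many near its start, with 20 of 43 in the first 25% and 4 in the last, and chromosome 20 had 15 of 45 in the first 25% and 4 in the last. Chromosome 17 had the opposite layout, with 1 in the first 25% and 8 in the last. Other peaks were not counted in these parts of single chromosomes. Isolation follows local peak density by the rule, so these layouts are descriptions only. Over all chromosomes 209 isolated peaks lay in the first 25% and 155 in the last, against 3245 and 3617 other peaks.

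Some stretches held many peaks and none that was isolated. The longest lay on chromosome 17 from 1790815 to 17436420, between 4.31% and 41.9% of the span, where 299 peaks in 15.6 Mb (19.1 per Mb) all had a neighbour within 100 kb. The next was the end of chromosome 2, where the 11.3 Mb from 37055735 to the end of the last peak at 48348075 held 217 peaks. Chromosome 20 came after these, with 158 peaks in the 7.19 Mb from 34817233 to 42007190. In all, 12 stretches without an isolated peak exceeded 5 Mb, counting those from a chromosome's start to its first isolated peak and from its last isolated peak to its last peak.

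In width, isolated peaks and other peaks were much alike in the middle of the distribution. The median was 447 bp for isolated peaks (95% interval 421 to 466) and 453 bp for other peaks (interval 445 to 460), and the upper quartile was 595 bp for isolated and 596 bp for other peaks. The lower quartile of both sets was the modal width, the most common width of the list, which lies between 300 and 350 bp. The medians differed by -6 bp, isolated minus other, with a 95% interval of -29.0 to 17.0 bp, which leaves room for a shift of up to that size in either direction. By chromosome the difference averaged -8.33 ± 33.9 bp (SD, n = 20 chromosomes), and isolated peaks had the lower median on 14 of 20. Chromosome 9 stood at one extreme with -64 bp and chromosome 7 at the other with 50.5 bp.

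**Figure D5:**
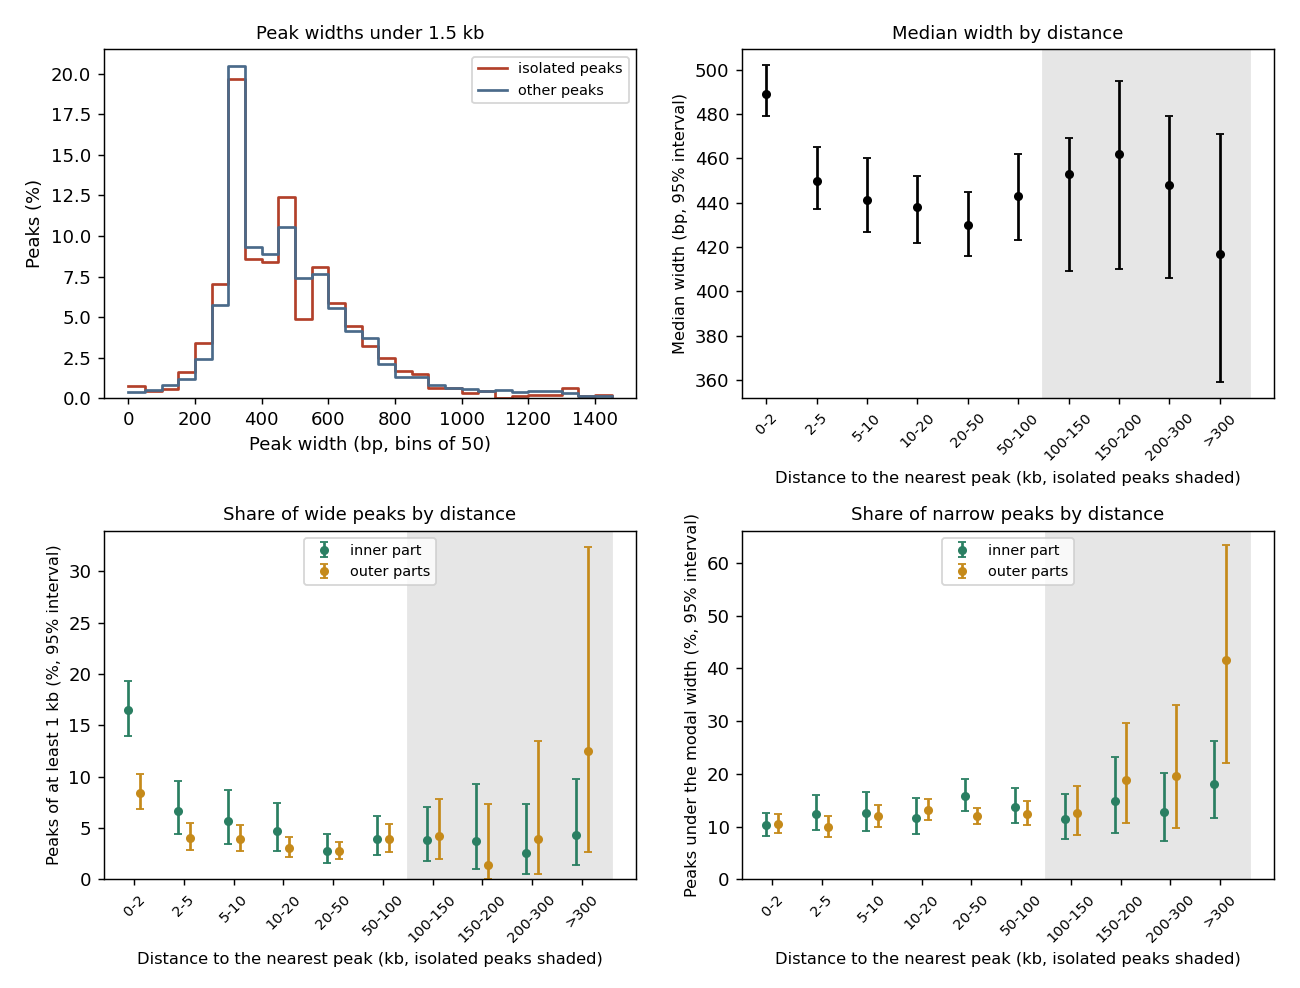
Distribution of widths under 1.5 kb for isolated and other peaks in percent per 50 bp (upper left), and by distance to the nearest peak in kb the median width in bp (upper right), the percent of peaks of at least 1 kb (lower left) and the percent under the modal width (lower right), the lower panels split by inner and outer parts. Bars are 95% intervals and the shaded classes are the isolated peaks; the highest share of wide peaks with narrow bars, 16.5%, is among inner peaks with a neighbour within 2 kb.

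Exactly the modal width belonged to 139 isolated peaks (14.8%, interval 12.6 to 17.2) and to 1582 other peaks (16.2%, interval 15.5 to 16.9). The difference of -1.41 percentage points had an interval of -3.66 to 1.11. It pointed in opposite directions by location. In the inner part 15.4% of isolated and 12.7% of other peaks had this width, a difference of 2.77 points (interval -0.22 to 6.15). In the outer parts 13.7% of isolated and 17.7% of other peaks had it, a difference of -3.94 points (interval -7.23 to 0.07). Both intervals include 0. Set against only those other peaks that were more than 10 kb from their nearest neighbour, the difference was 2.12 points among inner peaks (interval -1.19 to 5.71) and -4.64 points among outer peaks (interval -8.04 to -0.54), and the second of these excludes 0.

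Peaks narrower than the modal width were more frequent among isolated peaks, with 140 of 941 (14.9%, interval 12.7 to 17.3), than among other peaks, with 1173 of 9778 (11.996%, interval 11.4 to 12.7). The difference was 2.88 points (interval 0.65 to 5.38), and it had this direction on 14 of 20 chromosomes, with a mean of 3.25 ± 5.60 points (SD, n = 20 chromosomes). Set against only those other peaks that were more than 10 kb from their nearest neighbour, the difference was 1.98 points and its interval, -0.35 to 4.55, included 0. In the outer parts the shares were 16.8% of isolated and 11.7% of other peaks, and the difference was 5.04 points (interval 1.47 to 9.29), or 4.29 points (interval 0.64 to 8.59) against outer peaks over 10 kb from their nearest. In the inner part they were 13.7% and 12.7%, and the difference of 1.04 points (interval -1.82 to 4.30) included 0. Against inner peaks over 10 kb from their nearest it was -0.40 points (interval -3.61 to 3.10). Along the distance to the nearest peak the share was 10.4% within 2 kb, 12.9% at 50 to 100 kb, 11.9% at 100 to 150 kb, 16.6% at 150 to 200 kb, 14.9% at 200 to 300 kb and 22.1% beyond 300 kb. The last class held 31 such peaks of 140 (interval 15.6 to 29.9). The class just past the limit of the rule thus did not stand above the class just before it, and the higher shares were in the classes beyond 150 kb. Of the 24 outer peaks beyond 300 kb, 10 were narrower than the modal width (41.7%, interval 22.1 to 63.4).

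The narrowest isolated peaks were 2 neighbours on chromosome 7. The peak at 30872251-30872252 spanned 2 bp, the smallest width of the whole list, and the one before it, at 30323723-30323734, spanned 12 bp, with 548.5 kb between them. The third, on chromosome 12 at 26414251-26414268, spanned 18 bp. The name of the list holds the word INTERSECT, so such widths may be those of overlaps between peak calls. That was not tested. In all, 11 isolated peaks (1.17%, interval 0.585 to 2.08) and 84 other peaks (0.859%, interval 0.686 to 1.06) were under 100 bp, and 10 of the 11 lay in the inner part. With all peaks under 100 bp removed and isolation called again, the difference in the share below the modal width was 2.58 points (interval 0.42 to 5.01).

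Wide peaks, of at least 1 kb, numbered 36 among isolated peaks (3.83%, interval 2.69 to 5.26) and 511 among other peaks (5.23%, interval 4.79 to 5.69). The difference of -1.40 points had an interval of -2.55 to 0.09, which includes 0. It excluded 0 with a limit of 50 kb, at -1.56 points (interval -2.44 to -0.56). It also excluded 0, at -1.92 points (interval -3.12 to -0.41), once peaks below the modal width were removed. Isolation was then called again, so the 977 isolated peaks of that setting are not a subset of the 941. With the limit of 100 kb, the difference was found in the inner part. There 3.64% of isolated peaks (21 of 577, interval 2.27 to 5.51) and 7.75% of other peaks (226 of 2916, interval 6.81 to 8.78) were wide. The difference was -4.11 points (interval -5.73 to -2.04), with the same sign on 16 of 20 chromosomes. On chromosomes 2, 3, 5, 8, 9, 11, 13 and 16 no isolated inner peak was wide, so the sign on these was fixed. In the outer parts the shares were 4.12% and 4.15%, and the difference of -0.03 points had an interval of -1.72 to 2.57. The inner surplus among other peaks was found in those with close neighbours: 16.5% of inner peaks within 2 kb of another were wide, 6.68% of those at 2 to 5 kb and 2.76% of those at 20 to 50 kb. Set against only those other inner peaks that were more than 10 kb from their nearest neighbour, of which 3.65% were wide, isolated inner peaks differed by -0.01 points (interval -1.68 to 2.04).

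A few isolated peaks were very wide. The widest, 12304 bp on chromosome 12 at 24272360-24284663, was the only isolated peak among the 5 widest of the chromosomes, with gaps of 930 kb before it and 111 kb after it. The next was 7930 bp on chromosome 17 at 22351729-22359658, with gaps of 111 and 291 kb. A peak of 5238 bp on chromosome 10 at 34522321-34527558 had gaps of 283 and 513 kb. On chromosome 13 a peak of 3936 bp at 35880983-35884918 had gaps of 164 and 104 kb, and on chromosome 4 a peak of 3354 bp at 33841218-33844571 had gaps of 105 and 376 kb. The nearest neighbour was 104 to 111 kb away for 4 of these 5 peaks, and within 150 kb for 48.0% of all isolated peaks. Peaks of at least 1 kb were 3.98% of those at 100 to 150 kb and 2.76% at 150 to 200 kb. They were 2.98% at 200 to 300 kb and 5.71% beyond 300 kb. A width of 2 kb or more was reached by 7 isolated peaks (0.744%, interval 0.300 to 1.53) and 101 other peaks (1.03%, interval 0.842 to 1.25). No isolated peak of at least 1 kb was found on 4 chromosomes.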

How the data were processed

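The authors deposited 1 peak list with 3 columns: sequence, start and end in base pairs, with starts counted from 0. Bedtools, HOMER, SAMtools and Bowtie2 2.3.4.1 are listed in the submitters' processing notes, with no role for any of them. Genome build and peak-calling settings were not given in the sources used here. Neither was any correction for the transposase offset. The name of the list holds the word INTERSECT, but which peak calls were intersected, and how, was not given. Edges, and with them widths, depend on those steps.

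Gaps ran from the end of a peak to the start of the next. The span of a chromosome was the end of its last peak, the inner part its middle from 25% to 75%, and peaks were placed by midpoint. Medians carry order-statistic intervals, and their difference a Price-Bonett interval. The modal width was the most common one among chromosomal peaks. Distance classes were set after the list had been seen. Python 3.11.15, numpy 2.4.6, pandas 2.3.3, scipy 1.17.1, statsmodels 0.14.6 and matplotlib 3.10.9 were used. On simulated lists with uniformly random peak positions, the number of isolated peaks matched a direct count. Shares, bins, runs and distance classes were not tested in this way. The members and comparisons were chosen with earlier results of these data known. Named peaks were the 5 most remote, the 5 widest, the 3 narrowest and the 3 on either side of the limit. Named by the same rule were the 3 longest runs, with ties, and the 3 chromosomes with the highest and the lowest shares. Others were named after their values were seen. No gene coordinates were used.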

Additional observations from a re-analysis of the deposited data

How the results depend on the processing

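Over 61 alternatives for 6 results, 46 stayed within the interval of the value reported. Those for the share below the modal width, and those that kept only other peaks over 10 kb from their nearest neighbour, were chosen after seeing the data. The isolated share of 8.78% became 20.96% with a limit of 50 kb, 4.56% with 150 kb and 2.87% with 200 kb. It was 10.39% with peaks below the modal width removed before isolation was called again, and 9.77% with peaks within 1 kb merged. The inner surplus of 31.5 points became 17.0 at 50 kb, 38.7 at 150 kb, 44.3 at 200 kb and 26.7 with outer parts of 30%. The difference below the modal width became 5.59 points at 150 kb and 6.11 points at 200 kb, and it was 1.98 points, with an interval of -0.35 to 4.55, against other peaks over 10 kb from their nearest. The difference at exactly the modal width was 2.77 points among inner peaks and -3.94 among outer peaks. The difference in wide peaks was -4.11 points in the inner part, and 0.59 against other peaks over 10 kb from their nearest. Its interval, which includes 0 as reported, excluded 0 with a limit of 50 kb (-1.56 points). With peaks below the modal width removed and isolation called again, the interval also excluded 0 (-1.92 points). The difference in wide peaks was 0.04 points with peaks within 1 kb merged. The difference in median width ranged from -17 to 10 bp. The cause of these shifts was not tested. No paired analysis was possible because peaks carry no replicate number, and leaving out a replicate could not be done for the same reason. Depth is unknown, so its limits could not be given.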

Other observations

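The same distance rule, applied to peaks on unplaced scaffolds, found 8 peaks on 3 scaffolds, of 275 scaffold peaks with a neighbour on either side (2.91%). On chromosomes the share by the same count was 8.81%, and the shares were not tested against each other, since a short scaffold cannot hold such gaps. The widest of the 8 peaks had 1581 bp, and their median width was 671.5 bp. Among the 40 first and last peaks of chromosomes, 11 had their single neighbour more than 100 kb away.

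In the distribution of widths in 30 bins of 50 bp, the bin from 500 to 549 bp held 46 isolated peaks (4.89%, interval 3.60 to 6.47) and 723 other peaks (7.39%, interval 6.88 to 7.93). This bin was picked because it stood out among the 30, so its interval overstates the precision, and no explanation was tested.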
